A study of Pyrus ussuriensis with 15 samples.

Results

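The gene models described here are the very long coding sequences of the pear gene table. They are the models with IDs starting with Pbr, a coding length of at least 4500 bases and a span on the scaffold longer than that length, so that non-coding sequence interrupts them. Of the 44681 models in the table, 405 met the rule, which used structure alone and no expression value. Messenger RNA came from *Pyrus ussuriensis* Maxim, an Asian pear, and the groups were day 0, 3, 6, 9 and 12 of adventitious root development, with 3 libraries each. All groups came from adventitious buds after 25 days of subculture, and rooting took place on 1/2 MS medium at pH 6, with 7.5 g agar, sucrose at 30 g/L and, as the auxin, IBA at 0.5 mg/L. The labels do not say whether day 0 was taken before the buds met this medium, nor whether the replicates came from separate cultures, so the spread that p-values measure is that of these libraries and may be technical. The labels call the tissue adventitious roots on all days, and this was not checked against marker genes because the table pairs no ID with a gene name.

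Auxin starts the formation of adventitious roots, which are roots that arise from shoot tissue. Very long coding sequences encode large proteins. Known examples in plants are the TOR kinase, which couples nutrient supply to growth, the BIG protein of Arabidopsis, which is needed for normal auxin transport, callose synthases, which make a glucan of the cell wall, and chromatin remodellers of the SNF2 kind. Which of the 405 models encode such proteins is not given with the table, so the models are described by ID, structure and level. A long transcript yields more reads than a short one at the same number of molecules. Levels are therefore compared between models mainly as FPKM, reads per kilobase of coding sequence, scaled to library depth. The same model is followed across days as CPM, its count scaled to a common library depth by the TMM method. Where models are compared or ordered by CPM, the values are not scaled by length.

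The long models had coding lengths from 4500 to 16572 bases, with a median of 5466 bases. Their median span was 10484 bases, and the longest span was 51172 bases. The non-coding part within the span ran from 101 to 46471 bases, with a median of 4822 bases. They lay on 269 scaffolds, with at most 6 on one scaffold, 202 were on the plus strand, and none overlapped another listed model on either strand. For 61 of them another long model lay within 50000 bases. Of the 405 models, 391 passed the filter on low counts and were tested. Of the other 14, 5 had no count in any library and 9 had 8 to 72 counts summed over the 15 libraries.

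Most of the long models were expressed. The median of their mean FPKM over all libraries was 7.28, with quartiles of 2.15 and 15.4, and 167 reached 10 FPKM while 62 stayed under 1 FPKM. The highest was Pbr005433.1 (scaffold1274.0, 73213 to 82276, minus strand, coding length 5730 bases), with a mean of 95.0 FPKM. The median of mean FPKM was 7.72 over the tested long models and 9.54 over all 29134 tested models. Without the filter on low counts it was 7.28 over the 405 long models and 2.63 over all 44681 models. The order of the 2 groups per length thus depended on that filter. In reads not scaled by length the tested long models stood higher, with a median of 43.8 CPM against 10.8 CPM over all tested models. The 10 long models with most counts held 16.0% of the counts of all 405.

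Library totals ran from 11953240 to 17878524 counts. Libraries of one day correlated at 0.939 to 0.985 (Pearson's r of log2 CPM across genes), with the 3 day 6 libraries lowest, at 0.939 to 0.948. The day 9 libraries stood apart in the length of the models they counted: the mean coding or model length weighted by counts was 1273 to 1290 bases at day 9 and 1532 to 1638 bases in the other 12 libraries. This moves with every day 9 result below. Its part in those results was not tested, and library preparation and day cannot be told apart because day 9 has no other libraries. Nor can, in whole tissue, fewer cells of a type be told apart from less RNA per cell.

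The long models as a group took a much smaller share of the library at day 9 than on any other day. They took 3.16%, 2.77% and 3.23% of all counts in the 3 day 0 libraries, and 2.90%, 3.24% and 3.32% at day 3. The shares were 2.95%, 2.94% and 2.75% at day 6, then 1.40%, 1.45% and 1.39% at day 9, and 2.58%, 2.92% and 3.30% at day 12. The day 9 libraries were below all others and did not overlap them, while the other 4 days overlapped each other. The means were 3.06% ± 0.248, 3.15% ± 0.223, 2.88% ± 0.111, 1.41% ± 0.0359 and 2.93% ± 0.361 (SD, n = 3 libraries each). In order from high to low the days were 3, 0, 12, 6 and 9, and the first 4 neighbours in this order differed by less than their SD. The median FPKM over the 391 tested long models had the same low point, 3.66 ± 0.131 at day 9, against 8.49 ± 0.668, 8.83 ± 0.490, 7.99 ± 0.343 and 7.95 ± 1.09 on days 0, 3, 6 and 12 (SD, n = 3 libraries each). Over all tested models the median FPKM moved far less, from 9.53 ± 0.274 at day 0 to 8.13 ± 0.109 at day 9 (SD, n = 3 libraries each). No test was made of these summed levels.

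**Figure D1:**
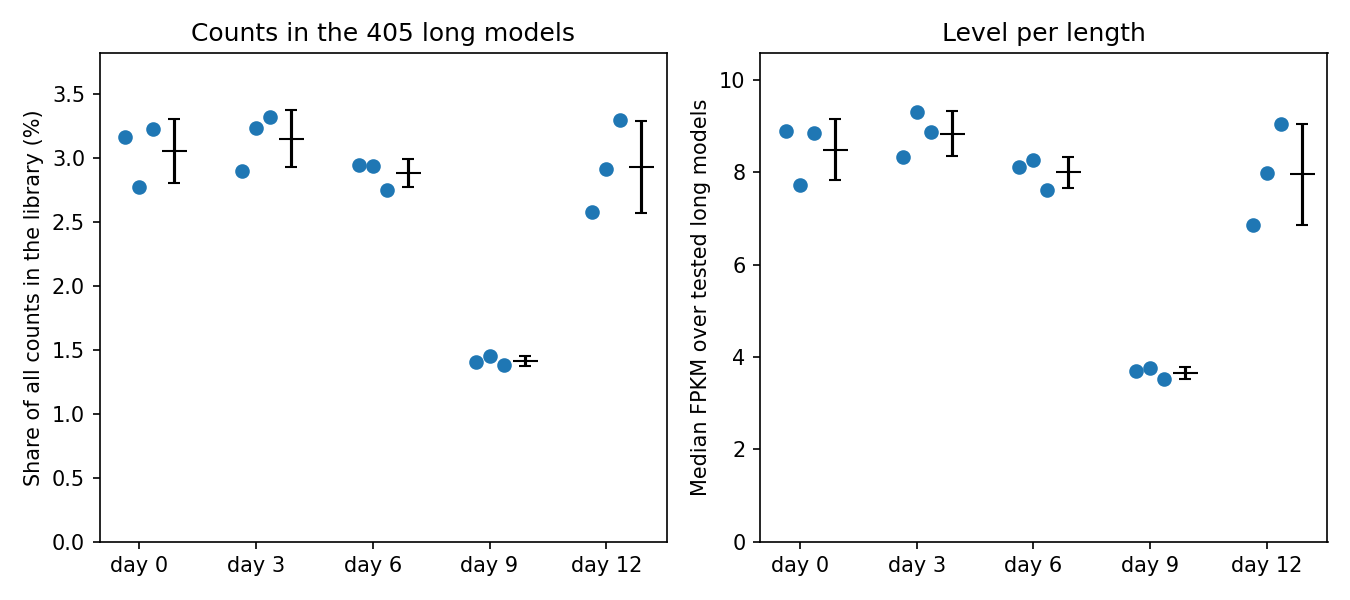
Left, the share of each library's counts (%) in the 405 long models; right, the median FPKM over the 391 tested long models. Each blue point is 1 library, and the black mark shows the mean with its SD over 3 libraries. The day 9 libraries lie between 1.39% and 1.45%, below all other libraries.

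Counted model by model, 355 of the 391 tested long models, or 90.8%, had their lowest mean FPKM at day 9, where 37.3% of all tested models did. Day 3 held the highest mean of 170 long models and day 0 that of 117, while day 9 held that of 5. These are 43.5%, 29.9% and 1.28% of the 391, where day 3, day 0 and day 9 held the highest mean of 18.4%, 23.2% and 25.8% of all tested models. In the test over the whole course, 343 of the 391 changed on some day, or 87.7% (edgeR quasi-likelihood F-test over the 4 later days, Benjamini-Hochberg adjusted p under 0.05). The background share over all tested models was 65.8%. Below, called means an adjusted p under 0.05 by edgeR's quasi-likelihood test. The largest rises and falls are picked from called models that reached 0 in mean log2 CPM and had no overlap between the libraries of both days, so weaker or overlapping models may have larger fitted changes.

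At day 3, soon after the start of root induction, few long models had changed. Of the 391, 9 were higher and 7 lower than at day 0, which is 4.09% called, against 9.36% of all tested models in either direction, 4.47% higher and 4.90% lower. The median log2 change was 0.07, with quartiles of -0.06 and 0.21, and over all tested models the median was -0.01, with quartiles of -0.28 and 0.25. Pbr015056.1 (scaffold222.0, 507459 to 517778, minus strand, coding length 4623 bases) had the largest rise by this rule, from 0.633, 0.723 and 0.820 CPM in the day 0 libraries to 1.26, 3.03 and 3.51 CPM at day 3. All day 3 libraries lay above those of day 0, with a log2 change of 1.83 ± 0.419 (SE, edgeR adjusted p = 0.0193). It was a weakly expressed model, with 10 to 12 counts in each day 0 library.

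The next largest rise at day 3 was that of Pbr000246.9 (scaffold1.0, 1693996 to 1701637, minus strand, coding length 5013 bases), from 15.8 ± 4.41 to 25.2 ± 2.91 CPM (SD, n = 3 each), a log2 change of 0.67 ± 0.165 (SE, edgeR adjusted p = 0.0250). The largest falls were in 2 weakly expressed models. Pbr006043.1 (scaffold130.0, 765010 to 778950, minus strand, coding length 4512 bases) had 1.83, 3.22 and 3.21 CPM at day 0 and 0.901, 1.01 and 0.689 CPM at day 3, a log2 change of -1.66 ± 0.447 (SE, edgeR adjusted p = 0.0358). Pbr034401.1 (scaffold642.0, 18764 to 23847, plus strand, coding length 4758 bases) had 1.52, 1.97 and 1.64 CPM at day 0 and 0.541, 0.673 and 0.620 CPM at day 3, a log2 change of -1.47 ± 0.332 (SE, edgeR adjusted p = 0.0179). In both, each day 3 library lay below each day 0 library. The day 3 calls rested on single libraries: of 392 long models tested in those fits, 2 were called when day 0 replicate 2 was left out and 7 when its replicate 3 was, and leaving out replicate 1, 2 or 3 of day 3 gave 9, 3 and 3 calls. The share of all tested models that was called fell in the same fits, to 3.56% and 4.53% for these day 0 replicates and to 5.02%, 3.39% and 5.02% for those of day 3. Each of the 4 named calls was lost when day 0 replicate 2 was left out, and likewise for day 3 replicate 2 or replicate 3. Leaving out day 3 replicate 1 also ended the calls of Pbr034401.1 and Pbr006043.1, and leaving out day 0 replicate 3 those of Pbr006043.1 and Pbr000246.9. All 4 kept their direction in these fits.

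At day 6, 8 long models were higher and 5 lower than at day 0, 3.32% of the 391 against 9.56% of all tested models, of which 5.30% were higher and 4.26% lower. The median log2 change of the long models was -0.03, with quartiles of -0.16 and 0.11. Pbr005829.1 (scaffold13.0, 488358 to 494342, plus strand, coding length 4539 bases) had 0.380, 0.131 and 0.342 CPM at day 0 and 1.15, 0.962 and 2.20 CPM at day 6, a log2 change of 2.31 ± 0.582 (SE, edgeR adjusted p = 0.0254). Its day 6 libraries all lay above day 0, with replicate 3 highest. At day 0 it was weakly expressed, with lower CPM than Pbr015056.1, so its fold changes against day 0 rest on few reads. Pbr009772.1 (scaffold162.0, 354852 to 371636, minus strand, coding length 5775 bases) had 3.04, 3.75 and 3.01 CPM at day 0 and 12.7, 7.89 and 11.6 CPM at day 6, a log2 change of 1.72 ± 0.344 (SE, edgeR adjusted p = 0.00881). The largest falls were again Pbr034401.1, at 0.237 ± 0.128 CPM (SD, n = 3), and Pbr006043.1, at 0.563 ± 0.290 CPM (SD, n = 3), with log2 changes of -2.80 ± 0.373 (SE, edgeR adjusted p = 0.00116) and -2.25 ± 0.465 (SE, edgeR adjusted p = 0.0101).

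The day 6 counts depended on the fit. Without day 0 replicate 2, 5 long models were called, and without day 6 replicate 1, 26 were, while the share of all tested models called was 3.75% and 14.8%. With the libraries of days 0 and 6 alone, edgeR called 0 of 388 long models by its quasi-likelihood test, with 32 at an unadjusted p under 0.05, while DESeq2 on all libraries called 20 of 400. Over all models the fit on days 0 and 6 called 25 of 27636 and DESeq2 10.8%, so the first of these fits made few calls over all models too. The 4 named day 6 changes thus lost their calls in the fit on only the 2 days. Pbr005829.1 lost its call too when replicate 2 or 3 of day 0, or replicate 3 of day 6, was left out.

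At day 9 nearly all long models were lower. Of the 391, 321 had fallen below day 0, or 82.1%, and 204 of these by at least 2-fold, while 5 had risen and 65 were not called. A called fall of at least 2-fold was seen in 52.2% of the long models and in 4077 of the 29134 tested models. Over all tested models 26.7% were lower and 23.0% higher, 49.7% in either direction. The median log2 change of the long models was -1.06, with quartiles of -1.52 and -0.60, and the median over all tested models was -0.02. Taken library by library, the median against the mean of day 0 was -1.06, -0.93 and -1.04 in the 3 day 9 libraries. In 325 long models, or 83.1%, all 3 day 9 libraries lay below all 3 day 0 libraries, which was so for 30.9% of all tested models. The reverse held for 7 long models, or 1.79%, and for 28.7% of all tested models.

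**Figure D2:**
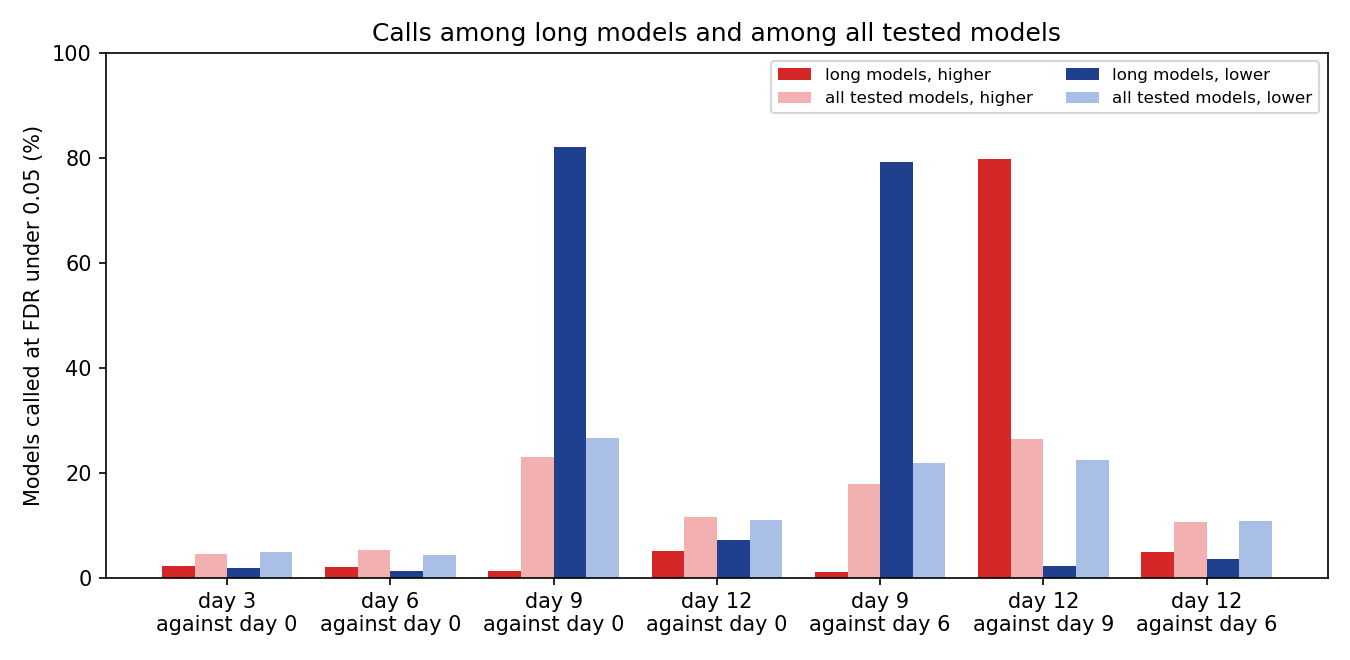
Share of models called higher (red) or lower (blue) at an adjusted p under 0.05 in each comparison, for the 391 tested long models (dark) and all 29134 tested models (light). At day 9 against day 0, 82.1% of the long models were lower against 26.7% of all models, and from day 9 to day 12, 79.8% were higher against 26.4%.

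The fall grew with coding length on both sides of the 4500 base limit. Among interrupted Pbr models, the median log2 change at day 9 was 0.29 under 1000 bases (8091 tested models), -0.12 from 1000 to under 2000 bases (9286), -0.51 from 2000 to under 3000 bases (3001) and -0.74 from 3000 to under 4500 bases (1329). Within the long models it was -0.99 from 4500 to under 6000 bases (261), -1.17 from 6000 to under 8000 bases (97) and -1.42 from 8000 bases on (33). The quartiles of neighbouring classes overlapped. The share called lower was 65.2% from 3000 to under 4500 bases, 78.2% from 4500 to under 6000 bases, 89.7% from 6000 to under 8000 bases and 90.9% from 8000 bases on. At day 12 the same 7 classes had medians between -0.07 and 0.00. The 5 tested models just above the limit, of 4500 to 4512 bases, had log2 changes from -2.72 to -0.29 at day 9, and the 5 just below it, of 4491 to 4497 bases, from -1.64 to 0.77. Models of at least 4500 bases in 1 uninterrupted block numbered 19, of which 15 had no count, and the 3 that were tested were all called lower at day 9.

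**Figure D3:**
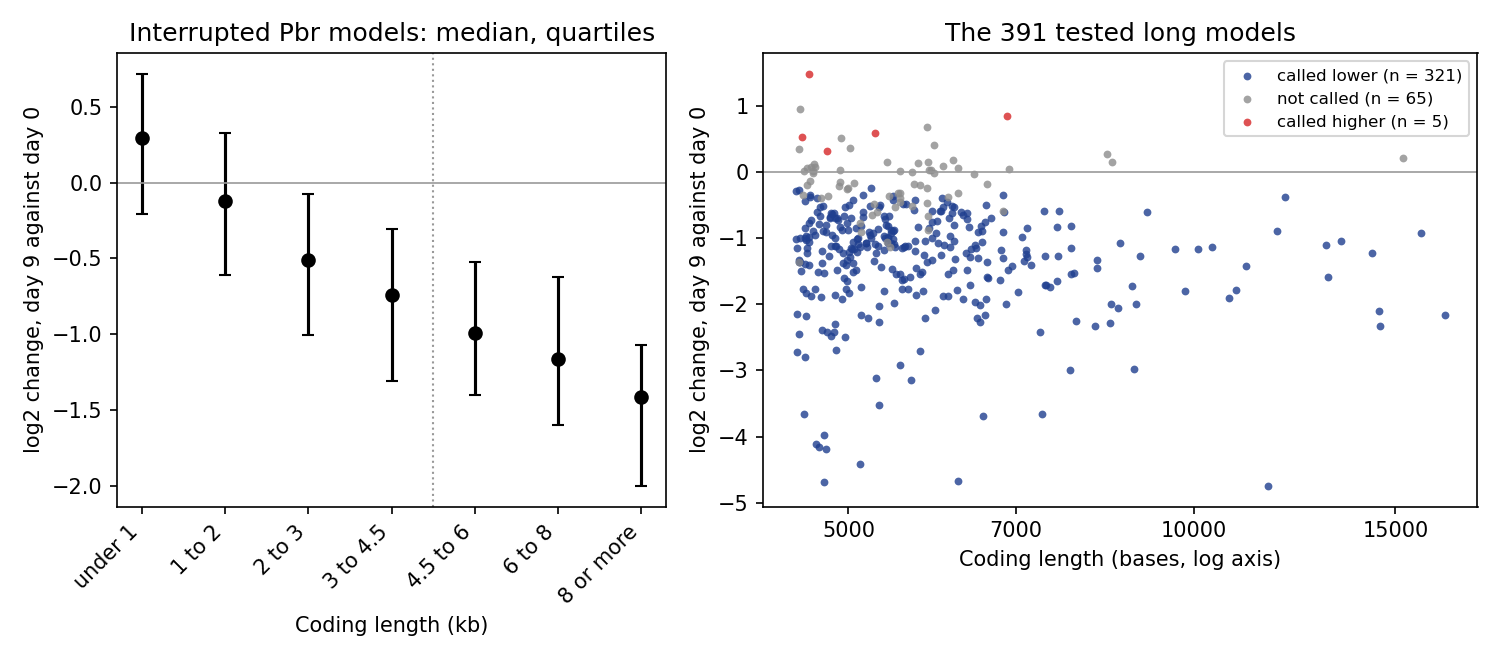
Left, median (point) and quartiles (bars) of the log2 change at day 9 against day 0 for interrupted Pbr models by coding length (kb); the dotted line marks 4500 bases. Right, each tested long model by coding length (bases, log axis), with 321 called lower (blue), 65 not called (grey) and 5 called higher (red).

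Within the long models, length ordered the fall only loosely. Spearman's rho of the day 9 log2 change with coding length was -0.13 across the 391 models, and it was 0.05 with the non-coding part of the span and 0.05 with mean log2 CPM. These are descriptions across genes, which share libraries. By non-coding part, 103 of the 124 models with the least were called lower, 112 of the next 134 and 106 of the 133 with the most. Ordered by mean log2 CPM, which is not scaled by length, 88 of the 130 lowest models were called lower. Of the next 130, 112 were called lower, and of the 131 highest, 121. The median log2 changes in this order were -1.12, -1.08 and -0.98. Long models with low CPM were thus called less often without a smaller median change. Of the 10 long models with the highest mean FPKM, 9 were called lower, and the 10 had log2 changes from -1.60 to -0.14.

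Pbr005433.1, the long model with the highest FPKM, had 638, 489 and 713 CPM at day 0 and 207, 236 and 230 CPM at day 9, a log2 change of -1.45 ± 0.200 (SE, edgeR adjusted p = 6.26e-05). Pbr012573.1 (scaffold193.0, 517490 to 538123, plus strand) was the longest, at 16572 bases, which codes for 5523 residues and a stop. It had 299, 199 and 321 CPM at day 0 and 54.9, 61.7 and 66.0 CPM at day 9, a log2 change of -2.16 ± 0.268 (SE, edgeR adjusted p = 2.61e-05). In both models the day 9 libraries lay close together and well below the day 0 libraries.

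The deepest falls did not follow length closely. At day 9, 14 long models were lower by more than 3 on the log2 scale, with coding lengths from 4572 to 11622 bases and mean levels from 0.139 to 9.19 FPKM. Pbr010052.1 (scaffold166.0, 294747 to 323476, plus strand, coding length 11622 bases) had 91, 58 and 75 counts at day 0 and 0, 2 and 5 counts at day 9, or 4.90 ± 0.992 against 0.169 ± 0.163 CPM (SD, n = 3 each). Its log2 change was -4.75 ± 0.711 (SE, edgeR adjusted p = 0.000123). Pbr018058.1 (scaffold27.0, 362421 to 367925, plus strand, coding length 4761 bases) had 139, 73 and 99 counts at day 0 and 2, 6 and 2 counts at day 9, or 6.79 ± 2.00 against 0.273 ± 0.230 CPM (SD, n = 3 each), a log2 change of -4.69 ± 0.470 (SE, edgeR adjusted p = 4.67e-06). Both models had changed little at day 3 and day 6, with log2 changes between -0.07 and 0.28 that were not called. In 3 tested long models at least one day 9 library had no count.

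The long models that escaped the fall at day 9 were few. In 32 of the 391, or 8.18%, the fitted day 9 level was at or above day 0. This share was 48.9% over all tested models and 15% among interrupted Pbr models of 3000 to under 4500 bases. Of the 32 long models, 5 were called higher and 27 were not called. Another 38 long models were below day 0 without being called lower. The 32 were chosen by their day 9 values, so what follows describes them without a test. At or above day 0 does not mean that a model held its level after day 6: 15 of the 32 were also at or above day 6, and 3 were called lower against day 6, in a comparison that uses the same day 9 libraries. Against day 0, the 27 that were not called had a median log2 change of 0.28 at day 6 and 0.13 at day 9. The coding lengths of all 32 ran from 4530 to 15216 bases, and their mean levels had a median of 4.67 FPKM, with 9 of the 32 at 10 FPKM or more. Of the 130 tested long models of at least 6000 bases 8 escaped, and of the 261 shorter ones 24 did. By the non-coding part of the span, 10 of 124, 11 of 134 and 11 of 133 escaped in the same order of classes. By mean log2 CPM, 16 of the 130 lowest escaped, 10 of the next 130 and 6 of the 131 highest. Of 58 tested long models with another within 50000 bases 7 escaped, and of the other 333, 25 did. In fits that left out 1 library at a time, 19 of the 32 were at or above day 0 in all 15 fits, and 24 without day 0 replicate 2, the lowest number in any of these fits.

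Pbr033666.1 (scaffold62.0, 777304 to 791342, plus strand, coding length 6882 bases) was the escaping model with the smallest p. It had 51.0, 41.6 and 40.2 CPM at day 0, 38.9, 34.7 and 35.0 CPM at day 3 and 42.8, 35.2 and 38.6 CPM at day 6. At day 9 it had 75.9, 81.0 and 83.6 CPM, and at day 12 47.0, 46.6 and 51.0 CPM. The day 9 libraries lay above all 12 others. The log2 change was 0.86 ± 0.104 against day 0 (SE, edgeR adjusted p = 2.22e-05) and 1.05 ± 0.104 against day 6 (SE, edgeR adjusted p = 5.50e-06), and from day 9 to day 12 it was -0.73 ± 0.103 (SE, edgeR adjusted p = 6.61e-05).

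Pbr015056.1 had the largest rise at day 9, from 0.725 ± 0.0940 CPM at day 0 to 2.54, 2.42 and 1.24 CPM in the day 9 libraries, a log2 change of 1.49 ± 0.424 (SE, edgeR adjusted p = 0.0103). It had stood at 2.60 ± 1.19 CPM at day 3 and 1.56 ± 0.424 CPM at day 6 and was at 1.40 ± 0.349 CPM at day 12 (SD, n = 3 each), so day 9 was not its highest day. From day 6 to day 9 its change was not called (log2 change of 0.39 ± 0.398 (SE), edgeR adjusted p = 0.466).

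The other 3 models called higher at day 9 are named because so few rose, after their values had been seen. Pbr010758.1 (scaffold173.0, 671447 to 678280, minus strand, coding length 4554 bases) had 56.4, 74.4 and 62.4 CPM at day 0 and 87.7, 98.5 and 94.3 CPM at day 9, a log2 change of 0.54 ± 0.160 (SE, edgeR adjusted p = 0.0135). Pbr020143.1 (scaffold3.0, 3807161 to 3813903, plus strand, coding length 5277 bases) had 9.74, 11.4 and 14.1 CPM at day 0 and 16.7, 20.5 and 15.9 CPM at day 9, a log2 change of 0.59 ± 0.186 (SE, edgeR adjusted p = 0.0185). Pbr010586.1 (scaffold172.0, 148850 to 163423, minus strand, coding length 4794 bases) had 21.1, 23.3 and 21.7 CPM at day 0 and 26.5, 26.2 and 30.1 CPM at day 9, a log2 change of 0.33 ± 0.0890 (SE, edgeR adjusted p = 0.00837). In all 3 the day 9 libraries lay above those of day 0. Without day 0 replicate 1 the calls of Pbr010758.1 and Pbr020143.1 were lost (adjusted p = 0.0552 and 0.0748), and that of Pbr020143.1 also without day 0 replicate 2 or day 9 replicate 2. The other 3 rises were called in all 15 fits that left out a library.

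**Figure D4:**
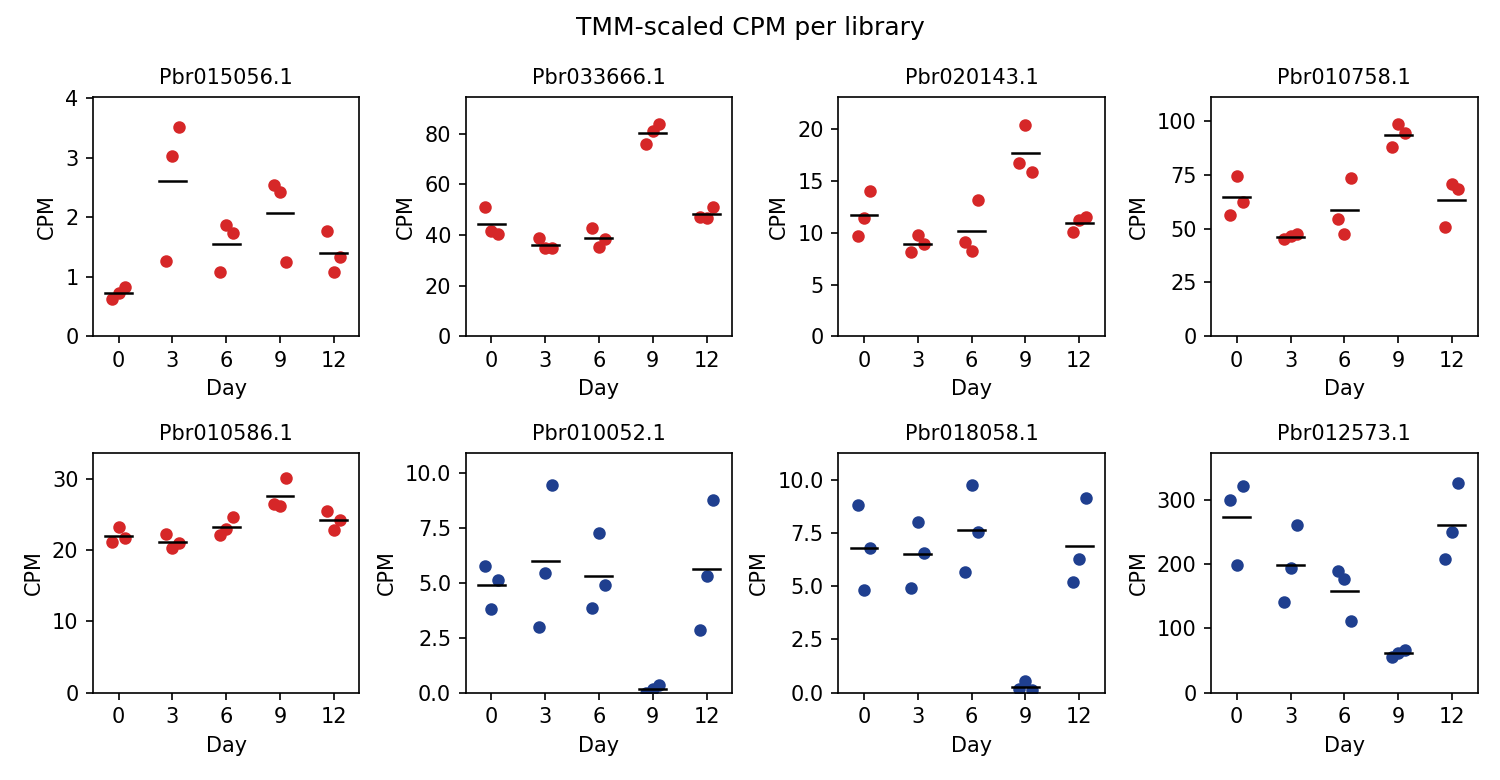
TMM-scaled CPM of 8 long models by day; each point is 1 library and each black line the mean of 3. The 5 models in red were called higher at day 9, and the 3 in blue, Pbr010052.1, Pbr018058.1 and the longest model Pbr012573.1, were called lower; Pbr033666.1 stands at 75.9 to 83.6 CPM at day 9, above its other libraries.

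A second fit set each model against others of its length, by taking a smooth curve of change against length out of each library. The curve centres models of each length near 0 by construction, so the median of the long models, -0.05, is no finding. In that fit 108 long models were called higher and 111 lower, and of all 29134 tested models 5809 were higher and 6492 lower, 42.2% in either direction. Of the 321 models called lower before, 111 were still called lower, 146 were not called and 64 were called higher than the curve. These values say how a model moved against others of its length, not against its own day 0 level. In that fit Pbr005433.1 lost its call, with a log2 change of -0.45 (edgeR adjusted p = 0.0655).

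Day 9 against day 6, the sampled day before it, used the same day 9 libraries and other controls. In this comparison 310 of the 391 long models fell and 4 rose, or 79.3% and 1.02%, against 21.8% and 17.8% of all tested models, 39.6% in either direction. The median log2 change was -0.997, with quartiles of -1.43 and -0.59. The largest rises were Pbr033666.1, given above, and Pbr020143.1, from 9.11, 8.21 and 13.2 CPM at day 6, a log2 change of 0.79 ± 0.187 (SE, edgeR adjusted p = 0.00439). The other 2 that rose were Pbr010758.1, with a log2 change of 0.68 ± 0.161 (SE, edgeR adjusted p = 0.00453), and Pbr010586.1, with 0.25 ± 0.0890 (SE, edgeR adjusted p = 0.0421). The largest falls were again Pbr010052.1, from 3.83, 7.25 and 4.87 CPM at day 6, and Pbr018058.1, from 5.67, 9.75 and 7.53 CPM, with log2 changes of -4.87 ± 0.710 (SE, edgeR adjusted p = 0.000126) and -4.86 ± 0.469 (SE, edgeR adjusted p = 4.12e-06).

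From day 9 to day 12 the long models rose. Of the 391, 312 were higher and 9 lower at day 12, or 79.8% and 2.30%, against 26.4% and 22.5% of all tested models, 48.9% in either direction, and 189 rose at least 2-fold, as did 3900 of the 29134 tested models. The median log2 change was 0.99, with quartiles of 0.59 and 1.51. In the fit that took out the length curve, 118 long models were called higher and 102 lower on this step. That fit called 41.8% of all tested models in either direction. Pbr010052.1 rose to 2.83, 5.31 and 8.78 CPM and Pbr018058.1 to 5.19, 6.28 and 9.11 CPM, with log2 changes of 4.96 ± 0.707 (SE, edgeR adjusted p = 7.30e-05) and 4.71 ± 0.469 (SE, edgeR adjusted p = 3.37e-06). The largest falls were in Pbr019802.1 (scaffold3.0, 1480278 to 1486475, plus strand, coding length 5268 bases), from 1.57, 2.33 and 1.17 to 0.723, 0.457 and 0.389 CPM, and in Pbr033666.1. The fall of Pbr019802.1 was a log2 change of -1.68 ± 0.496 (SE, edgeR adjusted p = 0.0129), and its call was lost without day 9 replicate 2 or day 12 replicate 3. Without day 9 replicate 2, 4 and not 9 long models were called lower on this step.

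At day 12 the long models stood near their day 0 and day 6 levels as a group. Against day 0, 20 were higher and 28 lower, or 12.3% of the 391, against 22.6% of all tested models, 11.6% higher and 11.0% lower. The median log2 change was -0.03, with quartiles of -0.17 and 0.14, where those of all tested models were -0.34 and 0.27. Against day 6, 19 were higher and 14 lower, or 8.44%, against 21.4% of all tested models, 10.6% higher and 10.7% lower, with a median log2 change of 0.01. The 343 and 358 models that were not called in these comparisons are not shown to be unchanged. The comparisons with day 0 share the day 0 libraries, and those that involve day 9 or day 12 share those libraries, so their calls are not independent. Of the 14 models with the deepest falls at day 9, 13 lay within 0.6 of day 0 on the log2 scale at day 12. The remaining one was at -2.17, and none of the 14 was called lower.

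**Figure D5:**
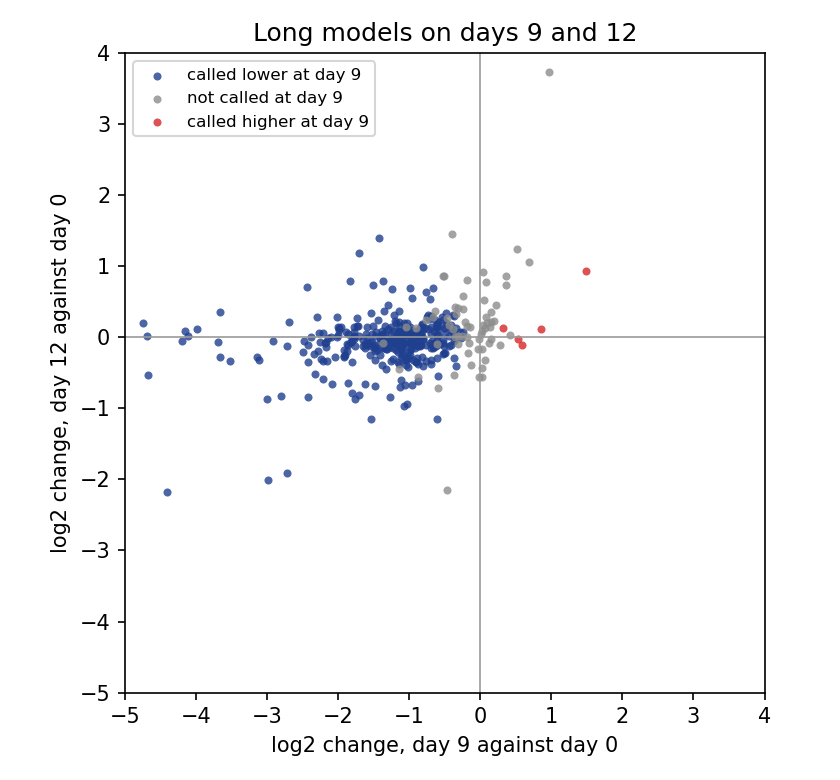
Log2 change against day 0 of each tested long model at day 9 (horizontal) and day 12 (vertical), coloured by its day 9 call; both axes share the day 0 libraries. The points spread from -4.75 to 1.49 at day 9 and from -2.17 to 3.73 at day 12, with medians of -1.06 and -0.03.

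The largest day 12 rise against day 0 was Pbr005829.1, with 3.61, 3.94 and 4.06 CPM, a log2 change of 3.73 ± 0.570 (SE, edgeR adjusted p = 0.000433). This model had few reads at day 0, so the size of its fold changes is uncertain. It had 0.895, 0.628 and 0.196 CPM at day 9, which overlapped day 0, and its log2 change there, 0.96 ± 0.637 (SE, edgeR adjusted p = 0.225), was the second largest among the escaping models. Pbr027495.1 (scaffold451.0, 226682 to 237040, minus strand, coding length 4737 bases) was a well expressed model, with 56.9, 58.1 and 72.3 CPM at day 0, 47.1, 48.5 and 46.6 CPM at day 9 and 166, 164 and 184 CPM at day 12. Its day 12 libraries lay far above all others, with a log2 change of 1.46 ± 0.224 (SE, edgeR adjusted p = 0.000436). The largest falls were in Pbr019802.1, from 2.33 ± 0.331 to 0.523 ± 0.177 CPM, and in Pbr006043.1, to 0.722 ± 0.314 CPM (SD, n = 3 each), with log2 changes of -2.15 ± 0.487 (SE, edgeR adjusted p = 0.00622) and -1.91 ± 0.451 (SE, edgeR adjusted p = 0.00786).

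Against day 6, the largest day 12 rise was that of Pbr034401.1, which went from 0.153, 0.385 and 0.174 CPM at day 6 to 1.64, 1.60 and 2.33 CPM at day 12, with a log2 change of 2.92 ± 0.370 (SE, edgeR adjusted p = 0.000105). Its day 0 and day 12 libraries overlapped, which does not show equal levels. Against day 0 this model was called lower at day 3 and at day 6, and neither call held in every fit. Pbr037396.1 (scaffold76.0, 587626 to 595391, minus strand, coding length 5334 bases) had 2.14, 1.48 and 1.33 CPM at day 6 and 5.98, 7.42 and 8.50 CPM at day 12, a log2 change of 2.15 ± 0.240 (SE, edgeR adjusted p = 3.77e-05). Pbr040007.1 (scaffold87.0, 381964 to 387371, plus strand, coding length 4860 bases) had 56.9, 39.9 and 34.4 CPM at day 6, 25.6, 29.1 and 24.0 CPM at day 9 and 16.0, 18.0 and 20.1 CPM at day 12, a log2 change from day 6 of -1.28 ± 0.164 (SE, edgeR adjusted p = 0.000118). Unlike the group, it went on falling after day 9, with a log2 change from day 9 to day 12 of -0.54 ± 0.164 (SE, edgeR adjusted p = 0.0152).

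Pbr014143.1 (scaffold21.0, 269781 to 274578, plus strand, coding length 4653 bases) joined 2 of these patterns. Its fitted day 9 level was at or above day 0 but already below day 6, and it was lower still at day 12. In 13 of the 15 fits that left out 1 library, it was at or above day 0 at day 9. It had 122, 85.3 and 114 CPM at day 0, 150, 172 and 149 CPM at day 3 and 146, 157 and 151 CPM at day 6. At day 9 it had 99.1, 128 and 99.6 CPM, which overlapped day 0, and at day 12 69.3, 66.8 and 81.0 CPM, below all other libraries. Its log2 change was 0.03 ± 0.138 at day 9 against day 0 (SE, edgeR adjusted p = 0.894), -0.47 ± 0.138 at day 9 against day 6 (SE, edgeR adjusted p = 0.0150) and -1.06 ± 0.139 at day 12 against day 6 (SE, edgeR adjusted p = 0.000135). The counts at day 12 moved with single libraries: against day 0 they were, in place of 48, 27 and 31 when replicate 1 or 2 of day 0 was left out, and 28 and 23 when replicate 1 or 2 of day 12 was, and against day 6 they were 17 without day 12 replicate 2, in place of 33. The share of all tested models called fell as well, against day 0 to 18.9%, 16.4%, 16.0% and 15.6% in the same order, and against day 6 to 14.1%.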

How the data were processed

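The authors deposited 1 table for the series, with scaffold position, strand and length of each gene model and, per library, whole-number read counts and FPKM values (per the file headers). The FPKM values are the authors' own scaling of the counts: for the long models all 5969 values above 0 were recomputed from counts, length and library total within a relative tolerance of 1e-04. The submitters' processing notes name HISAT, and per the series' design text the reference was *Pyrus bretschneideri*. Not given in the sources used here: aligner version, genome build, how reads were counted, whether strand was used, and how reads with several matches were handled. Values of models that have a near-identical copy are therefore uncertain. Descriptions and sequences of the models were not used here.

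Counts were tested with edgeR 4.0.16 in R 4.3.3. All models kept by filterByExpr (29134) entered 1 fit with the 5 days as groups, TMM scaling, glmQLFit and glmQLFTest, with 10 residual degrees of freedom, and p-values were adjusted by Benjamini-Hochberg over all tested models. Each SE was taken as |log2 change| over the root of F. DESeq2 1.42.0 and the other alternatives stand in the closing section. The length curve was a lowess fit (span 0.3) of each library's log2 ratio to the mean library against log2 length.

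Models were named by a rule: in each comparison, 2 rises and 2 falls of largest size, if called, if the libraries of both days stood apart, and if mean log2 CPM was 0 or more, plus the longest and the highest in FPKM. The members, lists and tests were chosen with earlier results of these data known. No 2 libraries held identical counts.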

Additional observations from a re-analysis of the deposited data

How the results depend on the processing

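The calls of the long models at day 9 against day 0 (326), day 9 against day 6 (314) and day 12 against day 9 (321) held under other library scaling, DESeq2, no filter on low counts, the 2 days alone and each left-out library, with ranges over left-out libraries of 306 to 330, 291 to 314 and 298 to 324. The shares of all tested models called in the fits with a left-out library ran from 42.2% to 52.4%, 32.3% to 41.1% and 39.9% to 51.2%. Over the same fits the median log2 change of the long models at day 9 ran from -1.103 to -1.003. The number of long models at or above day 0 ran from 26 to 33. The smaller counts moved more, from 2 to 23 at day 3, 5 to 26 at day 6, 23 to 59 at day 12 and 17 to 39 at day 12 against day 6. In the same order the shares of all tested models ran from 3.39% to 13.1%, 3.75% to 14.8%, 15.6% to 25.7% and 14.1% to 23.8%. At day 6, DESeq2 called 20 long models, the fit with the length trend removed 21 and the 2 days alone 0. These fits called 10.8%, 10.2% and 0.0905% of all tested models. At day 12 against day 6 taking out the length trend gave 50 and the 2 days alone 21, where 21.9% and 13.7% of all tested models were called. With the length trend removed, the median at day 9 was -0.0463 and 181 models were at or above day 0. At day 9 against day 6 that fit called 200 long models and 27.7% of all tested models. Adding a replicate block to that fit gave a day 9 median of -0.0437, with 182 models at or above day 0. It called 217 long models at day 9 against day 0 and 195 against day 6. The shares of all tested models called were then 41.4% and 26.6%. By construction, removing the trend takes out what models of one length share.

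Taken over all days, same-numbered libraries did not deviate together (median correlation of deviations -0.0012 over 30 pairs, 2 of them above 0.1), so the numbers were not taken as pairs. Between days 0 and 6, however, the same-numbered correlations were 0.133, 0.166 and 0.091. Those between other numbers of these days ran from -0.193 to 0.057. With the replicate block alone, 19, 10, 326 and 50 long models were called at day 3, 6, 9 and 12 against day 0. The shares of all tested models were 8.25%, 8.63%, 49% and 22%. A pair of alternatives was chosen after seeing the data: without the day 9 libraries 13, 9 and 40 were called at day 3, 6 and 12 against day 0 and 24 at day 12 against day 6, and without the day 6 libraries 332 at day 9. Of all tested models, the first called 6.84%, 7.5%, 20.6% and 19.2% in the same order, and the second 56%. Each named change was also read from the alternative fits, which the named models share. Of these readings, 718 kept direction and side of the threshold, 33 kept direction and lost the call, and none changed direction. Depth limits the weakest models. Pbr015056.1 had 10 to 12 counts a library at day 0, and Pbr005829.1 at day 0 and Pbr034401.1 at day 6 had lower CPM still.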
